A study of Mus musculus with 2 samples.

Results

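The 35 genes described here carry glucose into the cell, split it to pyruvate, hand the pyruvate to lactate or to the mitochondrion, and feed the pentose phosphate pathway. They were taken by name as a list, 35 of the 32285 gene features in both count tables. They were followed over all barcodes with at least 8000 unique molecular identifiers (UMIs, tags that count each captured RNA molecule once) of which under 10% were mitochondrial. By role, 2 genes encode glucose transporters, 3 hexokinases, 6 enzymes of upper glycolysis, 6 enzymes of lower glycolysis, 4 lactate enzymes and transporters, 8 proteins of pyruvate entry into mitochondria and 6 enzymes of the pentose phosphate pathway.

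The cells were bone marrow (BM) LSKs, the Lin-Sca-1+c-Kit+ fraction that holds the stem and early progenitor cells of the blood, profiled by 10x Genomics single cell RNA-seq with a 3′ kit. The comparison asked how loss of miR-142, a microRNA of blood cells, altered these cells in mice with BCR-ABL-driven chronic myeloid leukemia (CML). One library came from miR-142 WT CML mice (miR-142+/+ with BCR-ABL) and the other from miR-142 KO CML mice (miR-142-/- with BCR-ABL), both on the B6 background, 8 to 10 weeks old and 2 weeks after tetracycline was withdrawn to switch BCR-ABL on. Both groups carried the same inducible transgene pair, in which the SCL promoter drives the transactivator, so BCR-ABL is made in cells that use that promoter, and no library without BCR-ABL was compared here. There was 1 library per group and the number of mice behind each is not given in the sources used here, so no test was run, no p-value is given, and a difference between the libraries cannot be told apart from a difference between mice or preparations.

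Glycolysis turns glucose into pyruvate in the cytosol, with a small yield of ATP. Pyruvate is then either reduced to lactate and exported by monocarboxylate transporters, or carried into the mitochondrion and oxidized by the pyruvate dehydrogenase complex, which pyruvate dehydrogenase kinases hold back. The pentose phosphate pathway branches off at glucose 6-phosphate and supplies NADPH and ribose. Quiescent hematopoietic stem cells are known for a low metabolic rate with glycolysis as a main source of ATP, and dividing myeloid progenitors for a higher demand on both branches.

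The sequence of miR-142 is shown first because it is the one designed difference between the libraries. Its hairpin gives a pair of mature strands, read here from RefSeq on GRCm38.p6, and the capitals mark the seed, bases 2 to 8, through which a microRNA pairs with a messenger RNA.
mmu-miR-142a-5p (chr11:87756867-87756887, + strand): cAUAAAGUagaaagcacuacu
mmu-miR-142a-3p (chr11:87756903-87756925, + strand): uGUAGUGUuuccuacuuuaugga
Both strands lie on the plus strand of chromosome 11 and have different seeds.

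Searched against the longest annotated 3′ UTR (the untranslated end of a messenger) of each gene in GENCODE M21, the heptamer ACACTAC, which matches the seed of miR-142a-3p, was found in 0 of the 35 genes, against 7.18% of the 7335 tested genes with a UTR. The heptamer ACTTTAT, which matches the seed of miR-142a-5p, was found in 2 of the 35, Pfkp and Pkm, against 16.3% of those tested genes. Both stretches are shown with the heptamer in capitals, on the strand of the gene and in GRCm38 coordinates.
Pfkp (3′ UTR, bases 83 to 89, chr13:6581365-6581387, - strand): atttatcagcACTTTATggaagc
Pkm (3′ UTR, bases 224 to 230, chr9:59679048-59679070, + strand): ggaaaccctgACTTTATcacaga
A match is a description of the letters and not a site shown to be used. The 2 genes with the heptamer, a phosphofructokinase and a pyruvate kinase, had log2 ratios (KO over WT) of 0.11 and 0.18 over all cells, inside the range of the other members. With both libraries weighted to one composition of cell groups, as described below, these ratios were -0.32 and -0.04. Pfkp was lower in KO in all 7 cell groups compared and Pkm in 5 of the 7.

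Promoters of 34 of the 35 genes were found in the RefSeq table of 300-base windows (47 windows, since some genes have several starts), and Slc2a3 was not matched. The E-box CACGTG, the same on both strands and the preferred motif of MYC and MAX dimers, stood in the windows of 4 genes (Slc16a1, Ldha, Pdk2 and Pfkm), that is in 8.51% of the members' windows against 7.15% of all 32851 windows and 11.0% of those of tested genes. The shorter ACGTG, the core of the hypoxia response element and also a part of the E-box, was found on either strand in the windows of 17 genes, 38.3% of the members' windows against 19.6% of all windows and 27.5% of those of tested genes. The stretches that hold the E-box are shown on the strand of each gene with the motif in capitals.
Slc16a1 (chr3:104638454-104638479, + strand, 200 bases before the start): ggcgccgggtCACGTGgcgggaaggg
Ldha (chr7:46845649-46845674, + strand, 145 bases before the start): tgtcgcagcaCACGTGgagccactct
Ldha (chr7:46845746-46845771, + strand, 48 bases before the start): gcccagcctaCACGTGggttcccgca
Pdk2 (chr11:95041482-95041507, - strand, 126 bases before the start): cgaggagagcCACGTGtcgaagcgca
Pfkm (chr15:98092443-98092468, + strand, 136 bases before the start): ttaagtatgcCACGTGaagtaagtaa
Ldha, which makes lactate, and Slc16a1, which exports it, both hold the E-box, and Ldha holds it at 2 places.

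The filter left 5363 cells in miR-142 WT CML and 5458 in miR-142 KO CML, with 138183896 and 158438757 UMIs and medians of 19443 and 24181.5 UMIs per cell. The libraries shared 4 barcodes. Mir142hg, the host transcript of miR-142, had 1260 UMIs in WT and 20 in KO, in the direction of the labels. The genes of the sort, Ly6a (Sca-1), Kit and Cd34, were present at 68.3 to 255 CPM (UMI counts scaled to a common library total) in both libraries, while Pax5, Cd3e and Cd3g stayed at or below 0.0651 CPM. Of the other lymphocyte genes on the same lists, Nkg7 stood at 207 CPM in WT and 301 in KO, Cd79b at 36.0 and 34.6, and Cd79a at 3.69 and 0.0505, and their part in the results was not tested. The libraries differed in which cells they held: granule-high cells in cycle, gated on Elane, Mpo, Prtn3, Ctsg, Ms4a3 and Fcnb, were 16.5% of WT and 44.4% of KO cells, HSC-like cells 14.99% and 2.36%, lymphoid-primed-like cells 11.8% and 5.29%, and 35 antibody-secreting-like cells were seen in WT against 0 in KO. Gates on marker genes set these groups, with thresholds chosen after the data were seen, and cells that passed no gate are called ungated.

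Over all cells, most of the pathway stood slightly higher in miR-142 KO CML, and the size was small. Together the 35 genes took 7582 CPM in WT and 9237 in KO. Of the 35, 31 reached a mean of 10 CPM over both libraries (Aldoc, Eno3, Slc16a3 and Pdk2 did not), and 23 of these were higher in KO and 8 lower. The line for a call, with 1 library per group a size and not a test, was a 1.3-fold difference. Past it were 5 genes higher in KO (Gpi1, Gapdh, Mpc1, Pgls and Pgd), beside 5.97% of all 7483 tested genes, and 1 lower (Slc2a3), beside 14.0% of all tested genes. With all ratios centred on the median of the tested genes, 6 members were past it upwards, Taldo1 (0.43) being added, and 1 downwards. The backgrounds were then 8.62% and 9.50%. The median log2 ratio of the 31 genes was 0.14, and that of all tested genes was -0.08. The range in brackets after a log2 ratio is its exact conditional binomial 95% interval, which covers counting error only and not the spread between mice.

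The picture changed when both libraries were weighted to one composition over 9 cell groups (those with at least 30 cells in each library). The median log2 ratio of the 31 genes was then -0.025, against -0.06 for all tested genes, and 12 were higher in KO. Only Mpc1 then stayed past the fold upwards, beside 4.66% of all tested genes, and Slc2a3 and G6pdx were past it downwards, beside 4.48%. In 13 genes the direction turned from higher to lower: Hk2, Hk3, Pfkp, Tpi1, Pgam1, Eno1, Pkm, Ldha, Slc16a1, Dlat, Pgd, Tkt and Rpia. In 10 genes it was upwards both ways, and in 6 downwards both ways (Slc2a3, Pfkl, Pdha1, Pdk1, Pdk3 and G6pdx). Hk1 and Pfkm turned from lower to higher.

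**Figure D1:**
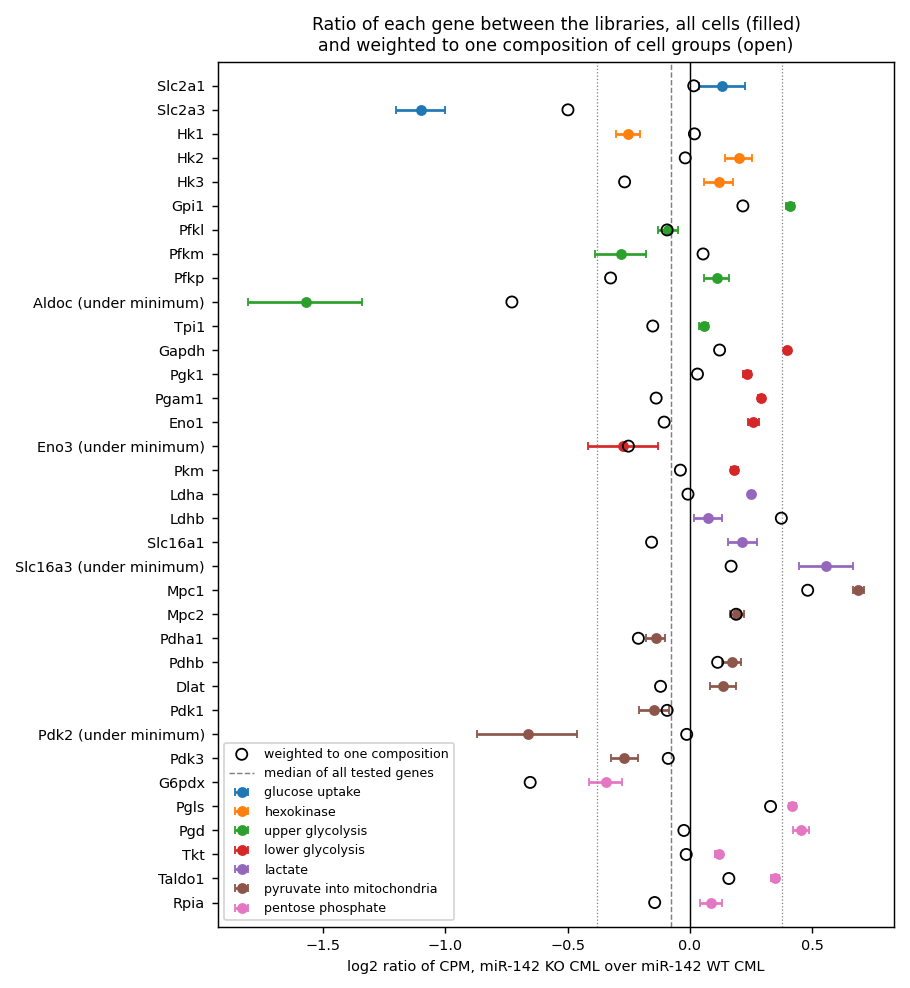
The log2 ratio of CPM, miR-142 KO CML over miR-142 WT CML, is plotted for each of the 35 genes in the order of the pathway; filled points are all cells with 95% counting intervals, open points are the libraries weighted to one composition, dotted lines mark 1.3-fold and the dashed line the median of all tested genes (-0.08). Most filled points of lower glycolysis and the pentose phosphate pathway lie right of 0 and their open points near 0, while Mpc1 stays right (0.69 and 0.48) and Slc2a3 and G6pdx stay left.

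Glucose uptake held the one member that was past the fold downwards over all cells. Slc2a3 (ENSMUSG00000003153, GRCm38 chr6:122727809-122801640) had 2262 UMIs in WT and 1209 in KO, which is 16.4 and 7.63 CPM and a log2 ratio of -1.10 (-1.203 to -0.9997); it encodes the high-affinity glucose transporter GLUT3. Slc2a3 stood under WT in 6 of the 7 cell groups compared (each with at least 100 cells in both libraries), from -0.96 in granule-high cycling cells to 0.18 in lymphoid-primed-like cells. In granule-high cycling cells it had 4.62 CPM in WT and 2.37 in KO, under the 10 CPM minimum. RNA outside cells (barcodes with 10 to 100 UMIs) held it at 11.5 CPM in WT and 6.93 in KO. With the gate thresholds doubled, Slc2a3 was at 0.24 (-0.54 to 0.94) in HSC-like and 1.04 (0.12 to 1.88) in lymphoid-primed-like cells. Slc2a1 (ENSMUSG00000028645, GRCm38 chr4:119108711-119137983) had 1683 UMIs in WT and 2113 in KO, which is 12.2 and 13.3 CPM and a log2 ratio of 0.13 (0.04 to 0.22); it encodes the widely used transporter GLUT1 and was higher in 3 groups and lower in 4. The members that bring glucose in therefore differed in direction over all cells. Weighted to one composition, Slc2a3 was at -0.50 and Slc2a1 at 0.02, and without granule-high cells Slc2a3 was at -0.23.

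Hexokinases trap glucose as glucose 6-phosphate, and the 3 genes summed to 116 CPM in WT and 115 in KO. Hk1 (ENSMUSG00000037012, GRCm38 chr10:62268855-62379908) had 7074 UMIs in WT and 6804 in KO, which is 51.2 and 42.9 CPM and a log2 ratio of -0.25 (-0.30 to -0.21); it encodes the broadly expressed isoform. Hk2, the inducible isoform, had 33.2 CPM in WT and 38.1 in KO (log2 ratio 0.20, 0.14 to 0.25), and Hk3, known from myeloid cells, had 31.4 CPM in WT and 34.01 in KO (0.12, 0.06 to 0.18). None of the 3 was past 1.3-fold over all cells. Within cell groups Hk3 went both ways, from 0.83 in HSC-like cells (13.4 CPM in WT, 23.8 in KO) to -0.39 in granule-high cycling cells (49.1 and 37.4 CPM). With the gate threshold doubled the HSC-like ratio was 0.06, over 384 WT and 39 KO cells. RNA outside cells (barcodes with 10 to 100 UMIs) held Hk3 at 24.8 CPM in WT and 30.1 in KO, above its level in HSC-like cells of either library, so no difference is read from those cells.

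In upper glycolysis the isomerase gene stood out and the phosphofructokinases did not. Gpi1 (ENSMUSG00000036427, GRCm38 chr7:34201330-34230336) had 55468 UMIs in WT and 84434 in KO, which is 401 and 533 CPM and a log2 ratio of 0.41 (0.39 to 0.42); it encodes glucose 6-phosphate isomerase. Gpi1 lay close to the fold, at 1.33 times WT. Within groups its ratio was largest in granule-high cycling cells, at 0.32, against -0.07 to 0.14 in the other 6. Over all cells it was 0.22 when weighted to one composition and 0.09 without granule-high cells. The phosphofructokinase subunits, which catalyse the committed step, had log2 ratios of -0.09 for Pfkl, -0.28 for Pfkm and 0.11 for Pfkp. Pfkm shares exonic bases on its strand with the annotated gene Gm26513, so its count is less certain. Tpi1, triose phosphate isomerase, had 356 CPM in WT and 369.6 in KO (0.06, 0.04 to 0.07) over all cells, and was lower in KO in all 7 groups, from -0.47 to -0.11, in each of them by more than its counting interval. Aldoc, an aldolase, was low, with 560 UMIs in WT and 216 in KO (log2 ratio -1.57, -1.80 to -1.34).

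The genes of lower glycolysis, where ATP is made, were mostly higher in KO over all cells. Gapdh (ENSMUSG00000057666, GRCm38 chr6:125161715-125166467) had 265893 UMIs in WT and 401391 in KO, which is 1924 and 2533 CPM and a log2 ratio of 0.40 (0.39 to 0.40); it encodes glyceraldehyde 3-phosphate dehydrogenase. It was at 1.32 times WT, just past the fold, and higher in 6 of 7 groups, from -0.10 in basophil/mast-like cells to 0.23 in ungated non-cycling cells. The others, in the order of the pathway, were Pgk1 (phosphoglycerate kinase) at 0.23, Pgam1 (phosphoglycerate mutase) at 0.29, Eno1 (enolase) at 0.26 and Pkm (pyruvate kinase) at 0.18. Eno3, the muscle enolase, had 826 UMIs in WT and 784 in KO (-0.27, -0.42 to -0.13). Within groups the picture was another one. Pgam1, with 671 CPM in WT and 822 in KO over all cells, lay between -0.17 and 0.01 within the 7 groups and was lower in 6. Eno1, with 223 CPM in WT and 267 in KO over all cells, was lower in all 7, from -0.62 in basophil/mast-like cells to -0.06. With the gate thresholds doubled, Eno1 was at 0.34 (-0.07 to 0.74) in HSC-like cells (384 in WT, 39 in KO).

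At the lactate step no member that reached the minimum was past the fold over all cells. Ldha (ENSMUSG00000063229, GRCm38 chr7:46841475-46855627) had 111600 UMIs in WT and 152360 in KO, which is 808 and 962 CPM and a log2 ratio of 0.25 (0.24 to 0.26); its product makes lactate from pyruvate. Ldhb, the subunit known for the reverse reaction, had 32.4 CPM in WT and 34.1 in KO (0.08, 0.02 to 0.13), and Slc16a1, the lactate exporter MCT1, had 29.97 CPM in WT and 34.8 in KO (0.21, 0.16 to 0.27). Slc16a3, the exporter MCT4 known from highly glycolytic cells, was under the minimum, with 1072 UMIs in WT and 1809 in KO (0.56, 0.45 to 0.67).
Among the members that reached the minimum, Ldhb had the ratio that differed most between cell groups. In granule-high cycling cells it had 14.0 CPM in WT and 33.8 in KO, a log2 ratio of 1.27 (1.15 to 1.39), whereas in ungated cycling cells it had 36.9 and 28.2 CPM, a ratio of -0.38 (-0.54 to -0.23). RNA outside cells held Ldhb at 37.2 CPM in WT and 35.1 in KO, so the WT granule-high cells were below that level and the KO cells near it. With the granule threshold doubled the ratio was 1.32, over 548 WT and 1828 KO cells. In the same gate the median level of late neutrophil markers was 0.785 per 10000 UMIs in WT and 4.91 in KO, and that of monocyte markers 4.69 and 2.48; their part in the ratio was not tested.

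The step of pyruvate into mitochondria held the member with the largest upward ratio among those that reached the minimum. Mpc1 (ENSMUSG00000023861, GRCm38 chr17:8282904-8297661) had 24796 UMIs in WT and 45807 in KO, which is 179 and 289 CPM and a log2 ratio of 0.69 (0.67 to 0.71); Mpc1 and Mpc2 form the mitochondrial pyruvate carrier. It was higher in 6 of 7 groups, each by more than the counting interval, from 0.31 to 0.55, and stood at -0.06 in basophil/mast-like cells. Mpc2 had 141 CPM in WT and 161 in KO (0.19, 0.17 to 0.22) and was higher in 6 of 7 groups, in 4 of them by more than the counting interval, with -0.34 in basophil/mast-like cells. Both genes of the carrier were thus higher in the same 6 groups and by different amounts. For Mpc2 the intervals in HSC-like (-0.07 to 0.32) and megakaryocyte-like cells (-0.13 to 0.20) held 0. With the gate thresholds doubled, Mpc2 was at -0.06 in megakaryocyte-like cells.
The subunits of the pyruvate dehydrogenase complex, which turns pyruvate into acetyl-CoA, did not all differ in one direction. Pdha1 (E1 alpha) was at -0.14, Pdhb (E1 beta) at 0.17 and Dlat (E2) at 0.14 over all cells. Within the 7 groups Pdhb was higher in every one (0.09 to 0.28) and Pdha1 and Dlat lower in every one (-0.28 to -0.0031 and -0.19 to -0.04), with intervals that left out 0 in 3, 2 and 1 of the groups. With the gate thresholds doubled, Pdha1 was at 0.01 in basophil/mast-like and Dlat at 0.23 in lymphoid-primed-like cells, with intervals that held 0. Among the kinases that inhibit the complex, Pdk1 was at -0.15 and Pdk3 at -0.27, and Pdk2, with 474 UMIs in WT and 343 in KO, at -0.66 (-0.87 to -0.46). All 3 kinase genes were lower in KO over all cells. Weighted to one composition, Pdk1 was at -0.09, Pdk2 at -0.01 and Pdk3 at -0.09, beside a median of -0.06 for all tested genes. Within the 7 groups they were higher in KO in 3, 2 and 1, and lower beyond the counting interval in 1, 0 and 3.

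In the pentose phosphate pathway the enzyme of the first step was lower and those of the next steps higher. G6pdx (ENSMUSG00000031400, GRCm38 chrX:74409483-74429194) had 3731 UMIs in WT and 3368 in KO, which is 27.0 and 21.3 CPM and a log2 ratio of -0.35 (-0.41 to -0.28); it encodes glucose 6-phosphate dehydrogenase, the entry point and first source of NADPH. It was lower in all 7 groups, from -0.79 in basophil/mast-like and -0.77 in granule-high cycling cells to -0.19 in HSC-like cells, with an interval below 0 in 4 of them, and weighted to one composition it was past the fold at -0.65. With the gate thresholds doubled, G6pdx was at 0.39 (-0.97 to 1.51) in HSC-like cells (384 in WT, 39 in KO). Pgls (ENSMUSG00000031807, GRCm38 chr8:71592176-71601092) had 54952 UMIs in WT and 84247 in KO, which is 398 and 532 CPM and a log2 ratio of 0.42 (0.40 to 0.43); it encodes the lactonase of the second step, was higher in all 7 groups (0.06 to 0.39, in 6 of them beyond counting error) and stayed at 0.33 when weighted to one composition. Pgls shares exonic bases on its strand with Fam129c, so reads that fit both genes were not assigned. With the gate thresholds doubled, Pgls was at -0.25 (-0.42 to -0.08) in lymphoid-primed-like cells (216 in WT, 57 in KO). Pgd (ENSMUSG00000028961, GRCm38 chr4:149149991-149166771) had 11767 UMIs in WT and 18496 in KO, which is 85.2 and 117 CPM and a log2 ratio of 0.46 (0.42 to 0.49), and it encodes the third enzyme, which yields the second NADPH. Unlike Pgls, Pgd was within -0.33 and 0.03 in all 7 groups and at -0.025 when weighted to one composition.
The genes of the later, reversible steps were Tkt (transketolase) at 0.12, Taldo1 (transaldolase) at 0.35 and Rpia (ribose 5-phosphate isomerase) at 0.09 over all cells. Taldo1, at 356 CPM in WT and 454 in KO, lay just short of the fold and was higher in 6 of 7 groups, with -0.10 in basophil/mast-like cells. Rpia was lower in all 7, from -0.64 in HSC-like to -0.05 in megakaryocyte-like cells.

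Counted by step, the median log2 ratio over all cells was above 0 in 6 of the 7 steps. It was 0.12 for hexokinases, 0.06 for upper glycolysis, 0.26 for lower glycolysis, 0.21 for lactate, 0.14 for pyruvate entry and 0.23 for the pentose phosphate pathway, and -0.49 for the pair of glucose transporters. Weighted to one composition, all 7 medians were below 0, from -0.24 for the transporters to -0.01 for lactate. The medians of 4 steps were then above that of all tested genes (-0.06), against 6 over all cells.

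Within cell groups the members as a list differed little between the libraries, and close to all genes of the same group. The median of the members was -0.08 in HSC-like, -0.17 in basophil/mast-like, -0.04 in granule-high cycling, 0.03 in lymphoid-primed-like, -0.07 in megakaryocyte-like, -0.05 in ungated cycling and -0.05 in ungated non-cycling cells. The difference from the median of all genes tested in the group ran from -0.18 in basophil/mast-like to 0.07 in lymphoid-primed-like cells. In granule-high cycling cells, the group with most UMIs, 2 of 30 members were past 1.3-fold upwards (Ldhb and Mpc1; 5.83% of all genes) and 2 downwards (Hk3 and G6pdx; 6.36%). In HSC-like cells, with 129 cells in KO, 2 of 31 were past it upwards (Hk3 and Mpc1; 10.3%) and 4 downwards (Slc2a1, Pfkp, Tpi1 and Rpia; 13.9%). In basophil/mast-like cells 2 of 31 were upwards (Pdk1 and Pgls; 14.5%) and 4 downwards (Eno1, Slc16a3, Pdk3 and G6pdx; 10.4%).
In the other 4 groups the counts were as small. Lymphoid-primed-like cells had 2 upwards (Hk3 and Mpc1; 8.71%) and 1 downwards (Slc16a1; 12.7%). Megakaryocyte-like cells had 1 upwards (Pgls; 6.67%) and 4 downwards (Slc2a3, Pfkp, Pdk1 and G6pdx; 13.2%). Ungated cycling cells had 0 upwards (4.07%) and 2 downwards (Slc2a3 and Ldhb; 5.25%), and ungated non-cycling cells had 1 upwards (Mpc1; 6.57%) and 2 downwards (Slc2a3 and G6pdx; 8.89%).

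Over the 7 groups, 2 of the 31 members were higher in KO in every one, Pdhb and Pgls, beside 10.8% of all tested genes, and 7 were lower in every one, Pfkp, Tpi1, Eno1, Pdha1, Dlat, G6pdx and Rpia, beside 15.8%. Of the 7, 5 (Pfkp, Tpi1, Eno1, Dlat and Rpia) were nevertheless higher in KO over all cells. The remaining 22 went both ways. With the gate thresholds doubled, only Pdhb, Pfkp, Tpi1 and Rpia kept their direction in all 7 groups. Pgls was then at -0.25 (-0.42 to -0.08) in lymphoid-primed-like cells (216 in WT, 57 in KO). In HSC-like cells (384 in WT, 39 in KO) Eno1 was at 0.34 and G6pdx at 0.39. Dlat was at 0.23 in lymphoid-primed-like and Pdha1 at 0.01 in basophil/mast-like cells. The intervals of these last 4 ratios held 0. The KO groups had a lower depth in part: the median in granule-high cycling cells was 54303 UMIs in WT and 41088 in KO, and in lymphoid-primed-like cells 18855 and 12908. Their median level of G2/M genes was also lower in KO, 19.3 against 14.8 and 4.998 against 1.62 per 10000 UMIs; the part of depth and cell cycle in these ratios was not tested.

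**Figure D2:**
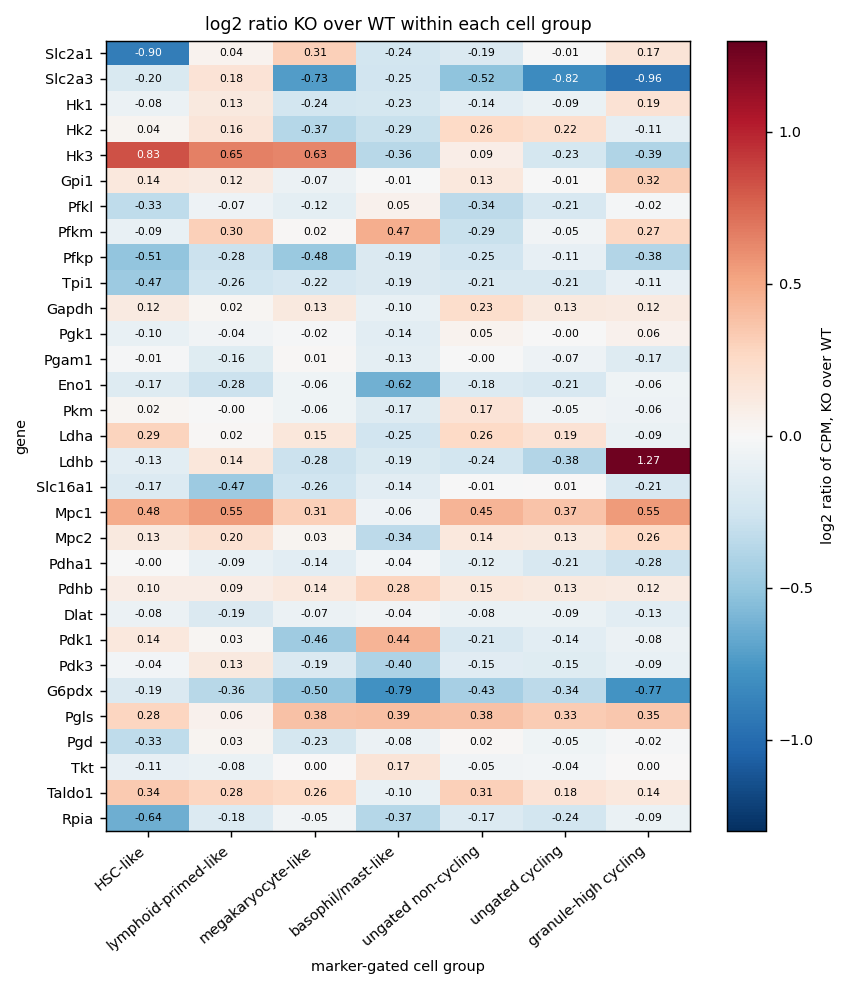
Each cell gives the log2 ratio of CPM, miR-142 KO CML over miR-142 WT CML, for 1 of the 31 genes that reached the minimum (vertical axis, in the order of the pathway) in 1 of 7 marker-gated cell groups (horizontal axis); red is higher and blue lower in KO. Mpc1 and Pgls form red lines with 1 pale cell each, G6pdx, Tpi1 and Eno1 blue ones, and Ldhb is dark red in granule-high cycling cells alone (1.27).

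The level of the pathway also differed between cell groups. Granule-high cycling cells had the highest CPM of the 7 groups for 16 of the 31 genes that reached the minimum in WT and 21 in KO, and for 15 in both. HSC-like cells had the lowest CPM for 9 of these 31 genes in WT and 10 in KO. The same shares over all tested genes are not given here, so these counts describe the members alone. In WT, granule-high cycling cells were past 1.3-fold over HSC-like cells for 20 of 31 members upwards, beside 26.2% of all tested genes, and for 5 downwards, beside 36.2%. In KO these counts were 21 upwards, beside 25.5%, and 6 downwards, beside 37.3%. The median log2 ratio of the members was 0.74 in WT and 0.68 in KO, and that of all tested genes was -0.12 and -0.13.
The members that were highest over HSC-like cells came from several steps. Pgam1 was at 1.93 in WT and 1.77 in KO, Pgd at 1.83 and 2.14, and Slc16a1 at 1.66 and 1.62. Gapdh, at 1184 CPM in HSC-like and 2661 in granule-high cycling cells of WT and 1288 and 2890 in KO, was at 1.17 in both libraries. The members past the fold downwards were Slc2a3, Ldhb, Hk1, Pfkm and Pdk3 in both libraries, and Pdk1 in KO. The 2 groups also differed in depth, with medians of 12865.5 UMIs in HSC-like and 54303 in granule-high cycling cells of WT and 11077 and 41088 in KO, and in cell cycle, since the granule-high cells were chosen as cycling; their part was not tested.

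**Figure D3:**
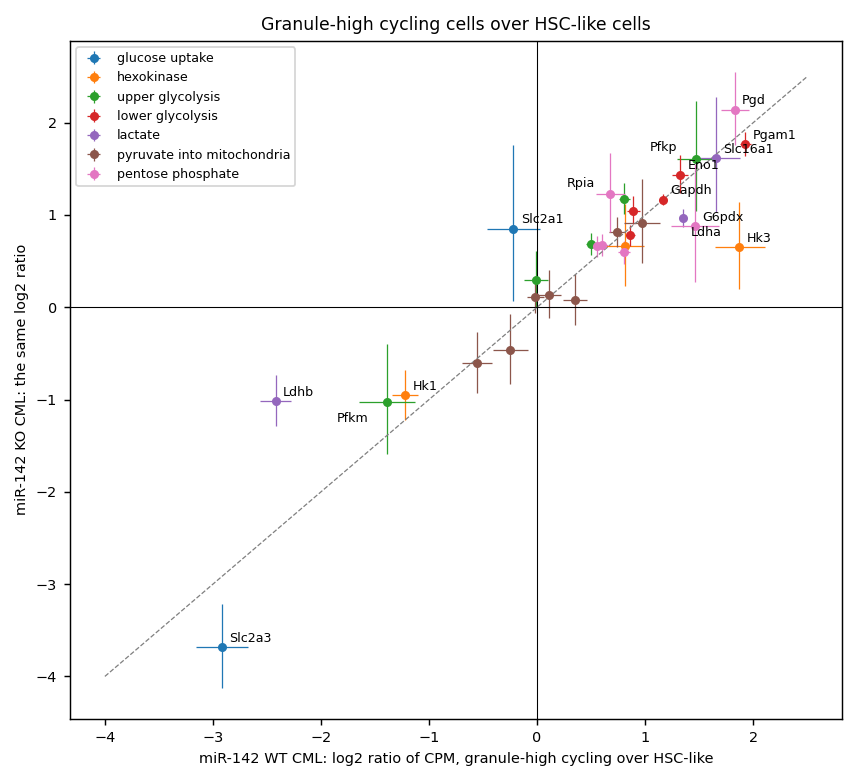
Each point is 1 of the 31 genes, with the log2 ratio of CPM in granule-high cycling over HSC-like cells in miR-142 WT CML on the horizontal and in miR-142 KO CML on the vertical axis; bars are 95% counting intervals, colours mark the step and the dashed line marks equal ratios. Most genes lie in the upper right near that line, Slc2a3, Ldhb, Hk1 and Pfkm in the lower left, and Ldhb (-2.42 in WT, -1.02 in KO), Hk3 (1.87 and 0.65) and Slc2a1 (-0.22 and 0.85, the latter on 13 UMIs in HSC-like cells of KO) lie off it.

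Isoforms of the same step had different cell groups. The 6 genes with the widest spread over groups, among those with at least 10 CPM in their highest group, were Slc2a3, Pfkp, Hk3, Slc16a3, Ldhb and Pgam1. Slc2a3 was highest in basophil/mast-like cells (60.1 CPM in WT, 50.4 in KO) and lowest in granule-high cycling cells (4.62 and 2.37), a 13.01-fold range in WT and a 21.3-fold range in KO. Slc2a1 spread far less, with 20.4 CPM in basophil/mast-like cells of WT as its highest and 9.78 in megakaryocyte-like cells as its lowest.
Basophil/mast-like cells were also highest for Pfkp, with 126 CPM in WT and 111 in KO against 15.9 and 13.1 in lymphoid-primed-like cells. Slc16a3 reached 45.6 and 29.3 CPM there, and in the next group, granule-high cycling, 9.56 and 12.4. The basophil/mast-like gate thus held the highest levels of Slc2a3, Pfkp and Slc16a3 in both libraries. Other isoforms went the other way. Pfkl was lowest there (43.9 CPM in WT, 45.6 in KO), and Slc16a1 had 16.3 and 14.9 CPM there against 48.7 and 42.0 in granule-high cycling cells. Among the 31 members that reached the minimum, the gate was highest for 9 in WT and 4 in KO, and lowest for 7 and 6.
Hk3 was highest in granule-high cycling cells and lowest in megakaryocyte-like cells, where 3.13 CPM in WT and 4.86 in KO were counted. Hk1 had the opposite order, with 94.5 and 79.9 CPM in megakaryocyte-like and 31.5 and 36.0 in granule-high cycling cells. Ldhb was highest in HSC-like cells (75.1 and 68.5 CPM) and lowest in basophil/mast-like cells (13.3 and 11.6), while Ldha was lowest in HSC-like cells (444 and 543 CPM). Pgam1 ranged from 240 CPM in megakaryocyte-like to 1113 in granule-high cycling cells of WT and from 243 to 987 in KO.

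**Figure D4:**
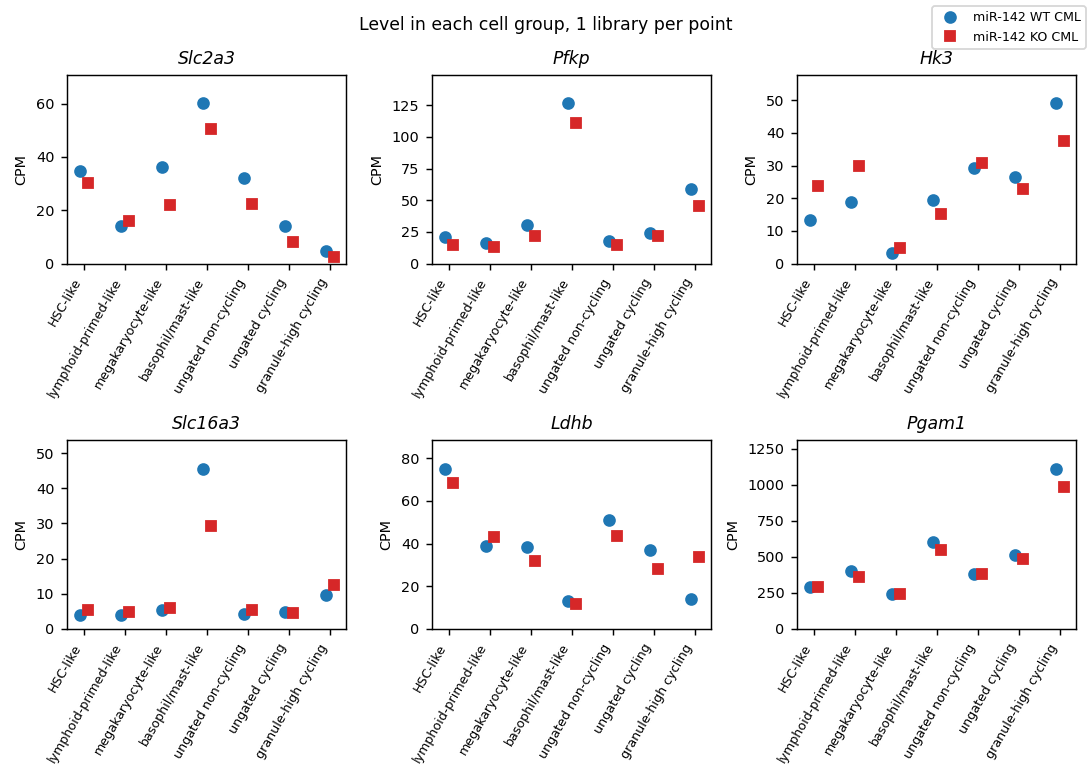
The level in CPM (vertical axis from 0) of the 6 genes with the widest spread is plotted for 7 cell groups (horizontal axis), with circles for miR-142 WT CML and squares for miR-142 KO CML, 1 library each. Slc2a3, Pfkp and Slc16a3 peak in basophil/mast-like cells, Ldhb in HSC-like cells and Hk3 and Pgam1 in granule-high cycling cells, in both libraries, and Ldhb of granule-high cycling cells stands at 14.0 CPM in WT and 33.8 in KO.

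The wider set of genes around the pathway, chosen by role, held 109 features, of which 54 reached the minimum. Past 1.3-fold were 9 upwards and 7 downwards, beside the same backgrounds of 5.97% and 14.0%, and the median log2 ratio was 0.03. None of the 8 other glucose transporters reached the minimum. Aldoa, the main aldolase (the feature ENSMUSG00000030695, since 2 features share the name), had 430 CPM in WT and 610.4 in KO, a ratio of 0.51 (0.49 to 0.52). Aldoa fell short of the fold, at 0.16, once the libraries were given one composition, and was higher in all 7 groups. Of the genes that set the flux between glycolysis and its reversal, Pfkfb3 (0.42), Tigar (0.50) and Fbp1 (1.299) were past the fold upwards and Pck2 (-0.59) downwards. Weighted to one composition, Fbp1 stayed past it at 1.54, whereas Pfkfb3 was at 0.25, Pck2 at -0.26 and Tigar, which turned, at -0.015. Fbp1, fructose bisphosphatase, had 6.53 CPM in WT and 16.1 in KO and was higher in all 7 groups.
Of the other pentose and ribose genes, H6pd (0.41) and Rbks (0.46) were past it upwards and Prpsap2 (-0.51) downwards, and of the glycogen genes Pgm2l1 (-0.67) and Gbe1 (-0.43) were past it downwards. Weighted to one composition, only Prpsap2 of these 5 stayed past it, at -0.41, with H6pd at 0.25, Rbks at 0.14, Pgm2l1 at -0.13 and Gbe1 at -0.21. None of the 11 other lactate and pyruvate genes that reached the minimum was past the fold over all cells, in either direction. Emb was at -0.34 over all cells and past the fold downwards, at -0.78, when weighted to one composition. It was lower in 6 of the 7 groups.
Among regulators, Hif1a, the oxygen-regulated subunit of HIF-1, had 34.01 CPM in WT and 61.3 in KO (0.85, 0.80 to 0.90), and Egln3, a prolyl hydroxylase, had 22.0 and 39.6 (0.85, 0.79 to 0.92). Both were higher in all 7 groups and past the fold when weighted to one composition (0.60 and 0.61). Myc was at -0.01, with 163 CPM in WT and 162 in KO, and Mycn, which was among the 10 leading genes of the HSC-like gate, at -1.64. Mycn stayed past the fold when weighted to one composition, at -0.56, and was lower in 6 of the 7 groups. Txnip, which restrains glucose uptake, was at -0.39 over all cells and at 0.18 when weighted to one composition. Of the 6 hypoxia-responsive genes outside glycolysis that reached the minimum, 1 was past the fold, Ndrg1 at -0.57, and it was at -0.10 when weighted to one composition. In that list 2 of the 6 were higher and 4 lower in KO. Genes of the list under the minimum included Vegfa at 1.38 (608 UMIs in WT, 1817 in KO) and Ddit4 at 0.63. Ankrd37 was at 0.46, P4ha2 at -0.80 and Kdm3a at -0.26, and Adm had 1 UMI in WT and 11 in KO.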

How the data were processed

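BM LSKs were captured with a 10x Genomics Next GEM 3′ kit, 1 library per group. Per the labels the authors ran Cell Ranger 6.1.2 on mm10 (version 4 in the file headers). The authors deposited unfiltered, unnormalized UMI counts for every barcode. Reads at the 3′ end that fit several genes, such as processed copies of Gapdh, Eno1, Pgk1 or Ldha, are not assigned to one, so these counts may be low in both libraries. Levels of different genes were not compared.

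Barcodes needed 8000 UMIs and under 10% mitochondrial UMIs. The study's own limit was lower, and a minimum of 1000 UMIs was tried. Counts were summed per library and given as CPM. Log2 ratios carry exact conditional binomial 95% intervals, which cover counting error only. Genes needed a mean of 10 CPM for a call, and the call was 1.3-fold, with no test, since cells are not replicates.

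Cell groups were gated per cell on marker UMIs per 10000 UMIs with at least 3 different markers detected, in this order: antibody-secreting-like (50), basophil/mast-like (20), innate lymphoid-like (4), granule-high (50), megakaryocyte-like (6), erythroid-like (10), lymphoid-primed-like (5) and HSC-like (3). Granule-high and ungated cells were split by S (15) or G2/M (10) genes. Cells near a threshold were not rare: 280 WT and 471 KO cells lay within 20% of the granule threshold and 613 and 275 of the HSC threshold. Groups with 100 cells in both libraries were compared. For one composition, groups with at least 30 cells were weighted by their mean share of UMIs. No doublet caller was run. An alternative left out cells that passed 2 gates (324 WT, 495 KO) and the 5% with most UMIs.

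Genes for the text were all members, with full values for those past the fold and for the first of each step, those of the wider lists past the fold, and the 6 with the widest spread over cell groups. Members and lists were chosen with earlier results of these data known. Of 35 members, 34 matched a RefSeq promoter. Python 3.11.15, numpy 2.4.6, scipy 1.17.1, pandas 2.3.3 and matplotlib 3.10.9 were used, and the intervals were tested on simulated data.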

Additional observations from a re-analysis of the deposited data

Results flagged for a closer look

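Hk3, a hexokinase of myeloid cells, went opposite ways in 2 cell groups, and the intervals of both ratios left out 0. Its log2 ratio (KO over WT) was 0.83 in HSC-like cells and -0.39 in granule-high cycling cells, a difference of 1.22. The HSC-like ratio was 0.06 with the gate threshold doubled, over 384 WT and 39 KO cells, and the ratio in granule-high cycling cells was then -0.49. RNA outside cells held Hk3 at 24.8 CPM in WT and 30.1 in KO, above its HSC-like levels of 13.4 and 23.8 CPM. Ldhb was at 1.27 in granule-high cycling and at -0.38 in ungated cycling cells, a difference of 1.65. With the thresholds doubled these ratios were 1.32 and -0.41. With 1 library per group, neither difference was tested.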

How the results depend on the processing

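No paired analysis was possible because each group has 1 library, and for the same reason no replicate could be left out. Over all cells the median of the members was 0.14, with 5 members past the fold upwards and 1 downwards, and 9 and 7 genes of the wider lists. The median was 0.21 with median-of-ratios size factors, 0.19 with a minimum of 16000 UMIs, 0.23 without likely doublets, 0.053 without granule-high cells, 0.24 at a mean of 50 CPM or more and -0.025 with one composition of cell groups. The count upwards was 8 with each cell thinned to 8000 UMIs, 9 without likely doublets, 2 without granule-high cells (Mpc1 and Pfkp), 1 with one composition and 1 at a fold of 1.5. The count downwards was 2 with one composition, 3 with no filter on low values and 0 at 50 CPM.

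For the wider lists the count upwards was 14 with size factors, 4 with one composition, 4 at a fold of 1.5, 20 with no filter and 1 at 50 CPM, and the count downwards was 3, 4, 3, 25 and 1 with one composition, without granule-high cells, at a fold of 1.5, with no filter and at 50 CPM. Pgd reversed, from 0.46 to -0.025 with one composition and -0.054 with doubled gate thresholds in that setting. That setting, chosen after seeing the data, gave a median of -0.051, 1 member upwards and 2 downwards, and 4 and 3 genes of the wider lists. Leaving out antibody-secreting-like cells, or basophil/mast-like and innate lymphoid-like cells, was also chosen after seeing the data, and gave medians of 0.13 and 0.16 and the same counts of members. Minimums of 4000 and 1000 UMIs, no mitochondrial filter and the mean of per-cell CPM left the median within 0.13 and 0.16 and the count upwards within 5 and 7. Mpc1 stayed between 0.46 and 0.77 and Pgls between 0.30 and 0.50 over 13 alternatives, and Slc2a3 and G6pdx were below 0 in all 13. The cause of these moves was not tested. Genes near 10 CPM, such as Slc2a1 and Pfkm, rest on 1432 to 2113 UMIs per library, and HSC-like cells of KO on 1678740 UMIs in all, so small ratios there were not detectable at this depth.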
